A study of Mus musculus with 12 samples.

Results

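Expression of the genes that make fatty acids, triglycerides and cholesterol was described in mouse kidney proximal tubules. The group was a list of 36 genes, chosen by symbol. Each was represented by the probe set that carried that symbol alone and had the highest mean over the 12 arrays, and was kept if above 4 (log2) on at least 3 arrays. All 36 were measured and all 36 passed that filter, out of 18193 genes with a probe set of a single symbol and 9751 that passed. Total RNA came from Percoll-isolated tubules of mice aged 20 weeks on a normal diet, with 3 arrays in each of 4 groups. The groups were wild type; mice with a catalase transgene (catalase-Tg); mice with the leptin receptor mutation (dB/dB); and mice with both (dB/dB catalase-Tg). The mutation removes leptin signalling, which leads to obesity and diabetes, and the comparison asks what it, and catalase added to it, does to tubule expression. From knowledge of these mice and not from the labels, the transgene is rat catalase driven by a promoter of Kap, an androgen-responsive proximal tubule gene, so mouse catalase probe sets do not check the labels. Lepr lay near the floor and checks nothing either. The labels name no sex and do not say that the 3 samples of a group came from separate mice, so the spread behind each p-value may be technical.

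Cholesterol synthesis starts from acetyl-CoA, passes through mevalonate and squalene, and ends with a series of steps that trim and rearrange lanosterol. Fatty acid synthesis starts from the same acetyl-CoA, and its products are lengthened, desaturated and stored as triglyceride. The SREBP transcription factors (genes Srebf1 and Srebf2) drive both branches. SCAP escorts them from the endoplasmic reticulum to the Golgi, where they are cut and released, and INSIG proteins hold SCAP back when sterols are plentiful. Proximal tubule cells draw most of their energy from fatty acids, and lipid held in them is a known feature of diabetic kidney disease.

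Promoters of the group are shown first because SREBP and its partner factors are known to act there on many of these genes. A window was given for 27 of the 36 genes in the RefSeq table of GRCm38.p6, and the 250 bases before the start were searched on both strands. The NF-Y box, CCAAT, lies beside SREBP sites in many sterol genes and was found in 22 of the 27 (81.5%), against 37.5% of all 27025 genes with a window. The GC box, GGGCGG, was found in 21 (77.8%) against 35.4%. The E-box, CACGTG, was found in 6 (22.2%) against 6.86%. The sterol regulatory element core, searched as TCACNCCAC, was found in 1 (3.7%), Hmgcs1, against 1.22%. These matches are descriptions of letters, not of binding. The 4 windows below belong to Hmgcs1, the entry enzyme of the pathway and the single gene with the sterol element core, to Mvd and Msmo1, which had among the smallest p-values of the group, and to Insig1, the feedback sensor. Capitals mark NF-Y boxes on either strand (CCAAT or ATTGG), the sterol element core and the E-box. They are written 5′ to 3′ on the gene's strand: Hmgcs1 chr13:119690101-119690350 on the plus strand, Mvd chr8:122443423-122443672 on the minus strand, Msmo1 chr8:64733579-64733828 on the minus strand and Insig1 chr5:28071162-28071411 on the plus strand.
Hmgcs1: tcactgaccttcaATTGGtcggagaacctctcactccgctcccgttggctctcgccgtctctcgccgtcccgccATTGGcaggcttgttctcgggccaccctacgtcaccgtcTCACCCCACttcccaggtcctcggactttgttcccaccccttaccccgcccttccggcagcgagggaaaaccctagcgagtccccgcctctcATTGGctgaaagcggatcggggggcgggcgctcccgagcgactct
Mvd: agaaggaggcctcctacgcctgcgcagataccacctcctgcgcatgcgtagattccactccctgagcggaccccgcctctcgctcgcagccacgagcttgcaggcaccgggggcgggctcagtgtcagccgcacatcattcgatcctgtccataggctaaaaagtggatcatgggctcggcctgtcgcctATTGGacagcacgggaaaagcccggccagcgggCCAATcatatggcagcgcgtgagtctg
Msmo1: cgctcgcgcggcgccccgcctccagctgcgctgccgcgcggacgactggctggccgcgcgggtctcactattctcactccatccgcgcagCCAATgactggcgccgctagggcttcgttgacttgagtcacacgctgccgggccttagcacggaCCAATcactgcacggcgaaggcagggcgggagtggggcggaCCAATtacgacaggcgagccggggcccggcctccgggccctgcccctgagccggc
Insig1: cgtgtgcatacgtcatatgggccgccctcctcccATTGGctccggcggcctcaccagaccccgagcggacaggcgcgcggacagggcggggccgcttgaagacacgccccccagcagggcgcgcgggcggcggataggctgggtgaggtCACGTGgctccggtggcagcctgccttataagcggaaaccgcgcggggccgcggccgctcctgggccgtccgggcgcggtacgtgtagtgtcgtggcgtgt
Hmgcs1 and Msmo1 each hold 3 NF-Y boxes, Mvd holds 2, and Insig1 holds 1 beside 1 E-box.

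Within a group, arrays were unlike in their levels of other kidney cell markers, whose part in the results was not tested. All but 2 of 18 proximal tubule markers read at least 8.93 on every array, among them Lrp2, the endocytic receptor megalin, at 10.39 on wild type 1 to 13.36 on wild type 2. The exceptions were Slc22a6, an organic anion transporter, at 4.86 on wild type 1, and Slc7a13, an amino acid transporter. Slc7a13 read 2.94, 4.83 and 11.22 in wild type and 2.87, 12.36 and 12.55 in catalase-Tg. It read 3.91, 3.57 and 5.34 in dB/dB and 5.32, 11.76 and 8.48 in dB/dB catalase-Tg. A score, the mean difference of a marker list from its 12-array mean, was taken for 13 of 13 endothelial markers that passed the filter. That score was 1.57, -1.52 and -0.08 (log2) on wild type 1, 2 and 3. It was -0.11, -1.87 and -1.76 on the catalase-Tg arrays, 1.42, 0.85 and 1.84 on the dB/dB arrays, and 1.53, -0.70 and -1.18 on the dB/dB catalase-Tg arrays. By this score wild type 1 and dB/dB catalase-Tg 1 sat with the dB/dB arrays and away from their own groups. Scores of 7 of 9 podocyte markers that were measured and passed were 2.48, -2.03 and 1.87 in wild type, so that wild type 2 stood alone there, and ran from -2.34 to -1.48 in catalase-Tg, 0.55 to 2.71 in dB/dB and -1.78 to 0.84 in dB/dB catalase-Tg. Markers of the loop of Henle and distal tubule scored 1.76, -1.83 and 0.44 in wild type, -2.36 to -1.55 in catalase-Tg, 1.06 to 1.52 in dB/dB and 0.24 to 1.01 in dB/dB catalase-Tg. All 10 of those markers lay wholly higher in dB/dB catalase-Tg than in catalase-Tg, beside 6.67% of all probe sets. Their median average dB/dB effect was 1.75, with 0 past the adjusted threshold in limma and 10 at an unadjusted p under 0.05, beside 12.2% of all probe sets. Genes known to be higher in male kidney scored -3.17, -0.82 and 2.17 in wild type, and 9 of 9 lay above 0 in the average transgene effect, with a median of 1.77 and 2 (22.2%) at an unadjusted p under 0.05, beside 18.1% of all probe sets. In wild type the score of the 18 proximal tubule markers ran opposite to the endothelial score, at -1.85 on wild type 1 against 0.51 and 0.40 on wild type 2 and 3. Of 8 fat cell markers measured, Adipoq, Lep, Retn and Cidec, the most specific to fat, did not exceed 2.53 on any array, against a floor of 2.302. Lipe and Pparg did not exceed 3.74 and 3.88. Fabp4, which capillary endothelium also makes, read 4.77 to 9.13, with 8.97 to 9.13 on the dB/dB arrays, and Aqp7, which proximal tubules also make, reached 5.82. Wild type 2 and wild type 3 also carried Xist, a transcript of female cells, at 11.91 and 6.72, where the other 10 arrays did not exceed 2.67. The Y-linked Eif2s3y lay at the floor of 2.302 on wild type 2, and at 7.88 to 8.93 on the other 11 arrays, so wild type 3 carried both transcripts. The wild-type arrays thus differed in sex-linked RNA, whose part was not tested, and every difference from wild type rests on them. Without wild type 2 and wild type 3 the median difference of the 36 genes between dB/dB and wild type was -0.02. That fit sets the other groups against wild type 1 alone. In bulk RNA, fewer cells of a type and less RNA per cell cannot be told apart. The joint score of podocyte, endothelial and mural markers, used below as a covariate, was 2.01, -1.78 and 0.64 in wild type. It was -0.87, -1.77 and -1.86 in catalase-Tg, 1.74, 0.76 and 2.22 in dB/dB and 1.47, -1.10 and -1.45 in dB/dB catalase-Tg. This score differed between groups, so a fit with it cannot tell marker levels apart from genotype.

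No gene of the group passed the threshold of 0.05 after Benjamini-Hochberg adjustment over 18144 probe sets (limma, 1 mean per group, all 12 arrays) in any of the 7 contrasts. The share of all probe sets that passed was also small. It was 0% in dB/dB against wild type, 0.022% in catalase-Tg against wild type, 0.0276% in dB/dB catalase-Tg against catalase-Tg, and in dB/dB catalase-Tg against dB/dB it was 0.00551%. For the interaction, the difference between the 2 transgene differences, it was 0.00551%, for the average dB/dB effect 0.0165%, and for the average transgene effect 0.0276%. All differences below are on the log2 scale, where 1 is a 2-fold change, and the standard error (SE) is that of the moderated test. The contrasts share groups, so they are not independent of each other.

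**Figure D1:**
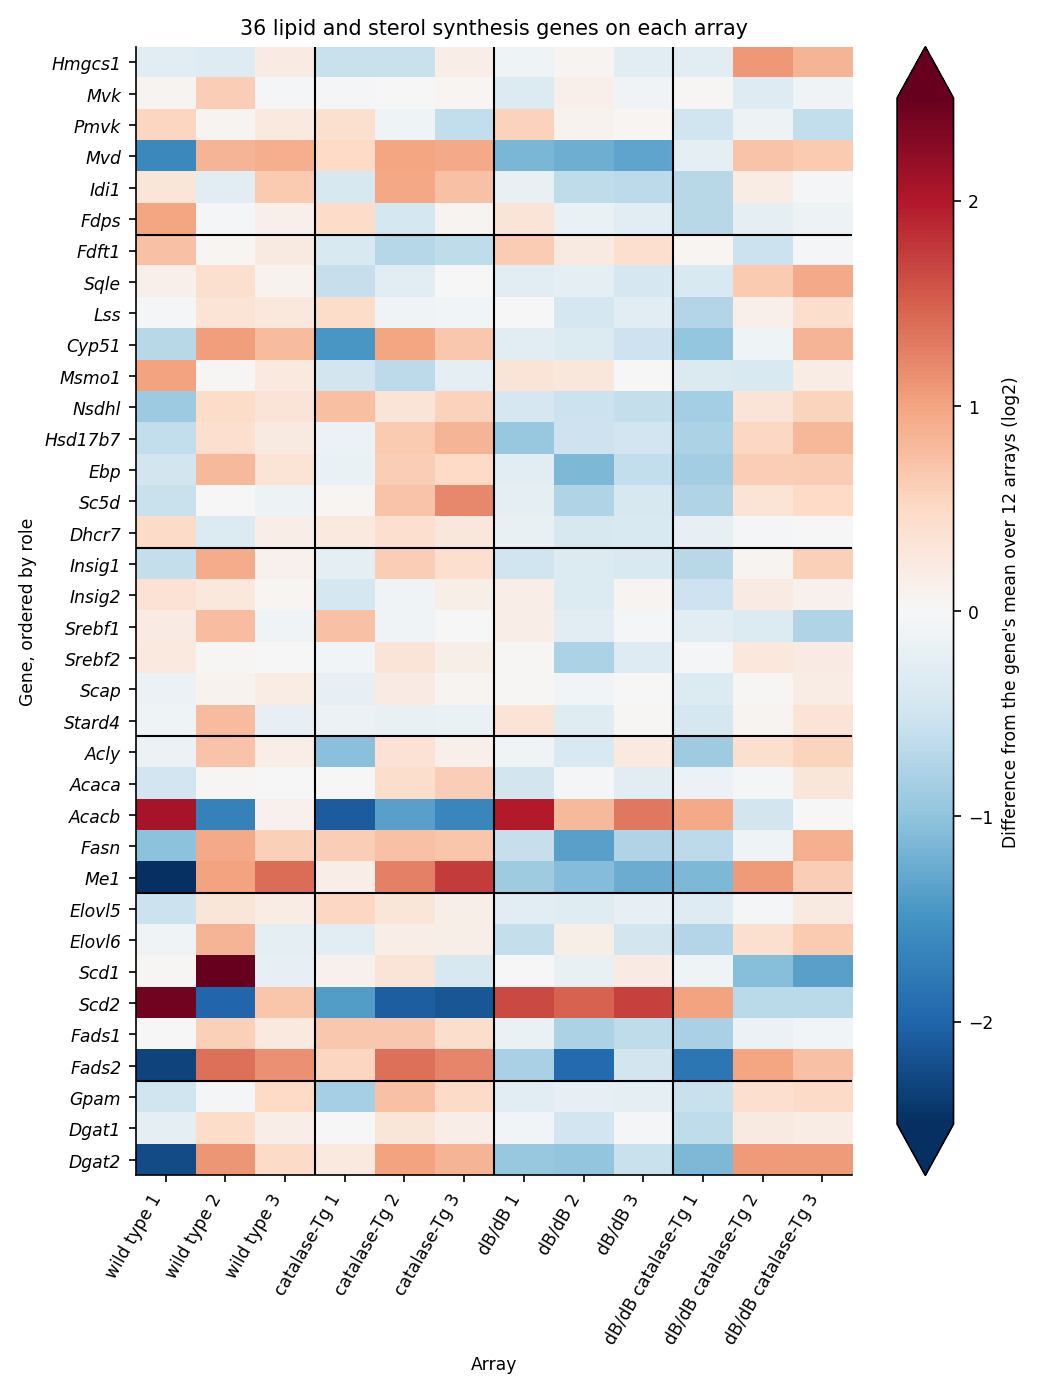
Difference of each gene from its own mean over 12 arrays (log2, colour) for the 36 genes, ordered by role in rows separated by lines, on the 12 arrays in columns. Wild type 1 and dB/dB catalase-Tg 1 resemble the dB/dB columns in some rows, with Scd2 and Acacb high and Me1, Fads2 and Dgat2 low. In others wild type 1 does not: it lies above all dB/dB arrays for Sqle, Dhcr7, Idi1, Msmo1 and Fdps.

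Before any test, dB/dB arrays held lower values than wild type for most of the group. In dB/dB against wild type, 32 of the 36 genes lay below 0 with a median difference of -0.41, where 62% of all probe sets tested lay below 0 with a median of -0.11. The median of the 36 genes was -0.50 without wild type 1 and -0.19 without wild type 2. With the joint marker score above as a covariate it was -0.13. The 4 above 0 were Hmgcs1, Fdft1, Acacb and Scd2. In dB/dB catalase-Tg against dB/dB, 24 of the 36 lay above 0 and 12 (33.3%) below, beside 51.6% of all probe sets below 0. The median was 0.26, against -0.02 over all probe sets. It was 0.54 without dB/dB catalase-Tg 1 and 0.09 without dB/dB catalase-Tg 3, and it turned to -0.13 with a score of podocyte, endothelial and mural markers as a covariate. The same transgene in mice without the mutation divided the group evenly. In catalase-Tg against wild type 18 of 36 (50%) lay below 0 with a median of 0.00, against 52.5% and -0.02 over all probe sets. The median of the 36 genes was -0.18 without wild type 1 and -0.32 with the covariate. In dB/dB catalase-Tg against catalase-Tg, 25 of 36 (69.4%) lay below 0 with a median of -0.25, against 62.1% and -0.10 over all probe sets. That median turned to 0.08 without dB/dB catalase-Tg 1 and to 0.03 with the covariate. The mean over the 36 genes was -0.19, 0.37 and 0.28 in wild type, against -0.11, -0.36 and -0.22 in dB/dB. In catalase-Tg it was -0.12, 0.22 and 0.21, against -0.49, 0.14 and 0.27 in dB/dB catalase-Tg. Array 1 was the lowest of its group in all but dB/dB, and the wild-type and dB/dB groups overlapped through wild type 1.

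At an unadjusted p under 0.05, 2 of the 36 genes (5.56%) passed in dB/dB against wild type, Mvd and Fads1, both lower, where 4.16% of all probe sets did. In catalase-Tg against wild type 6 (16.7%) passed, against 9.15%, and in dB/dB catalase-Tg against dB/dB 5 (13.9%), against 7.5%. The contrast of dB/dB catalase-Tg with catalase-Tg had 5 (13.9%), against 6.86%, and the interaction had 1 (2.78%), Sqle, against 1.64%. The average dB/dB effect had 7 (19.4%), 2 higher and 5 lower, against 12.2%. The average transgene effect had 8 (22.2%), 3 higher and 5 lower, against 18.1%. The lowest adjusted p of any of the 36 genes was 0.767 in dB/dB against wild type and 0.172 in the average transgene effect.

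Groups whose 3 values did not overlap were few. In dB/dB against wild type Sqle and Fads1 lay wholly lower and none wholly higher, where 8.91% of all probe sets were wholly lower and 2.52% wholly higher. In catalase-Tg against wild type Fdft1, Sqle and Msmo1 were wholly lower and Sc5d wholly higher, beside 7.8% and 5.74% of all probe sets. Pmvk, Fdft1 and Scd2 were wholly lower and Mvd wholly higher in dB/dB catalase-Tg against dB/dB, beside 11.1% and 4.87%. In dB/dB catalase-Tg against catalase-Tg, Dhcr7, Srebf1 and Fads1 were wholly lower and Acacb and Scd2 wholly higher, beside 9.35% and 6.67%.

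The mevalonate steps held 6 genes, and in dB/dB against wild type 5 of them lay below 0 with a median of -0.35. Hmgcs1, which joins acetyl-CoA to acetoacetyl-CoA ahead of mevalonate, read 11.22, 11.15 and 11.69 (log2) in wild type, against 11.37, 11.55 and 11.21 in dB/dB. It read 10.92, 10.92 and 11.64 in catalase-Tg and 11.19, 12.56 and 12.34 in dB/dB catalase-Tg. The values above 12 came from 2 arrays, dB/dB catalase-Tg 2 and 3. In dB/dB catalase-Tg against catalase-Tg the difference was 0.87 (SE 0.35, adjusted p = 0.704), with a 95% interval before adjustment of 0.09 to 1.64. The dB/dB difference without the transgene was 0.03, with an interval of -0.75 to 0.80, and the interaction was 0.84 (SE 0.49, adjusted p = 1.00).

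Mvd makes isopentenyl diphosphate, the branched 5-carbon unit of sterols, and had the widest range of these 6. Its wild-type values were 4.26, 6.72 and 6.80, those of dB/dB 4.73, 4.66 and 4.57. In catalase-Tg it read 6.38, 6.86 and 6.82, and in dB/dB catalase-Tg 5.65, 6.59 and 6.53. All 3 dB/dB arrays and wild type 1 lay below 5, and the other 8 arrays lay above 5.6. Its difference was -1.27 (SE 0.57, adjusted p = 0.767) in dB/dB against wild type and 1.60 (SE 0.57, adjusted p = 0.636) in dB/dB catalase-Tg against dB/dB. The average transgene effect was 1.18 (SE 0.41, adjusted p = 0.203). Without wild type 1 the first of these was -2.11 and passed (adjusted p = 0.0246, where the other fits gave 0.000772 to 1.00), as 1 of 36 genes (2.78%) beside 0.59% of all probe sets. Against wild type 1 alone, without wild type 2 and wild type 3, the dB/dB difference of Mvd turned to 0.39.

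Pmvk, which adds the second phosphate to mevalonate, read 5.94, 5.48 and 5.65 in wild type and 5.80, 5.30 and 4.78 in catalase-Tg. It read 5.99, 5.50 and 5.45 in dB/dB and 4.90, 5.28 and 4.78 in dB/dB catalase-Tg. The last group lay below every dB/dB array, a difference of -0.66 (SE 0.28, adjusted p = 0.636). Mvk (mevalonate kinase) had group means of 4.15 to 4.48, a span within 1 SD of the wild-type arrays at 0.35. Idi1, which interconverts the 5-carbon units, read 8.79, 8.22 and 9.15 in wild type, 8.09, 9.46 and 9.22 in catalase-Tg, 8.30, 7.86 and 7.83 in dB/dB and 7.80, 8.67 and 8.43 in dB/dB catalase-Tg. Its average dB/dB effect was -0.67 (SE 0.27). Fdps, which builds farnesyl diphosphate, had differences of -0.39 (SE 0.32) in dB/dB against wild type and -0.33 (SE 0.32) in catalase-Tg against wild type.

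**Figure D2:**
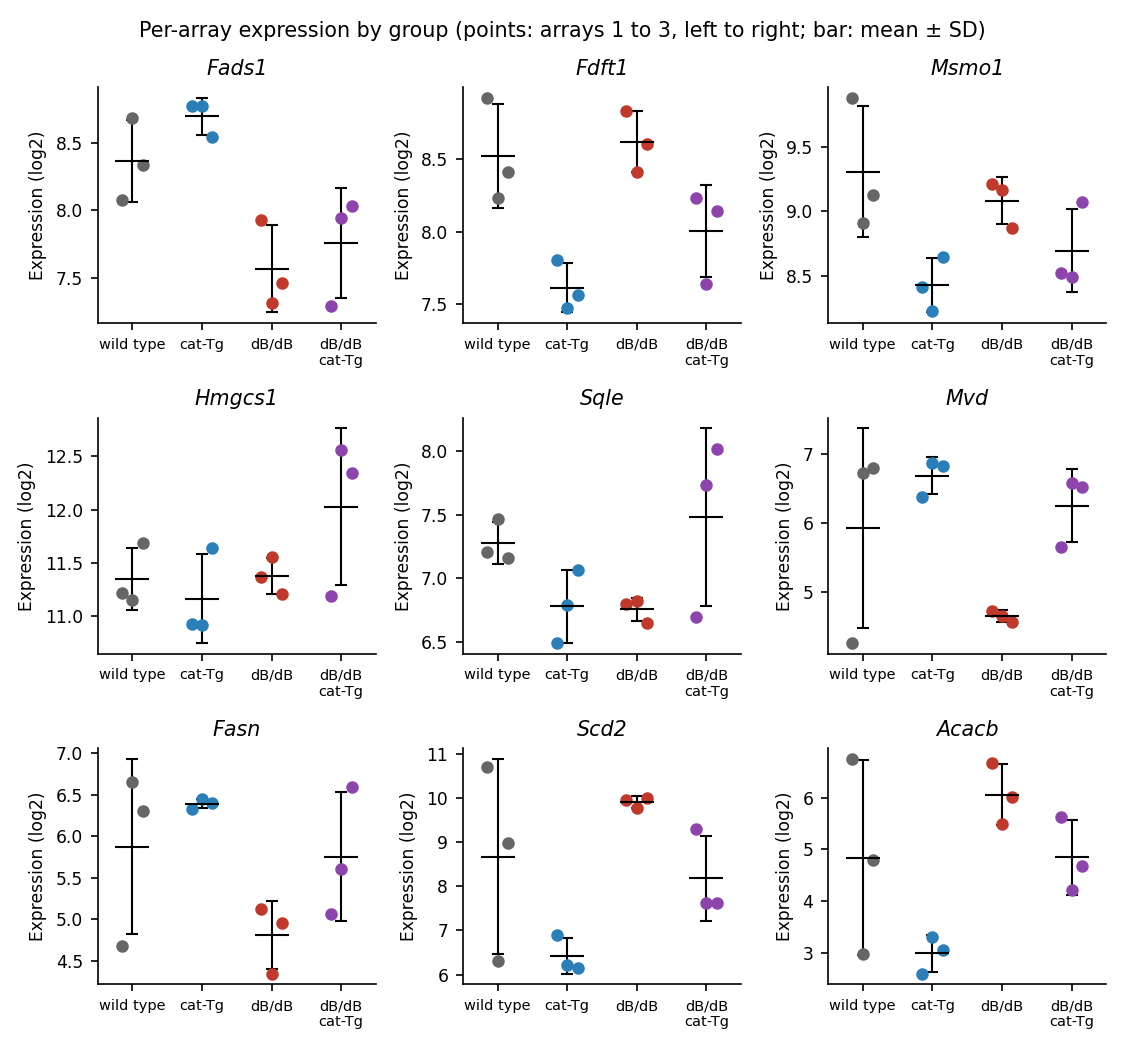
Expression (log2) of 9 genes on each of 12 arrays, by group, with arrays 1 to 3 from left to right and bars for the group mean ± SD. Fads1 lies at 7.29 to 8.03 with the mutation and 8.08 to 8.78 without it, and the wide wild-type bars of Mvd, Fasn, Scd2 and Acacb come from wild type 1 lying apart from wild type 2.

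From squalene to cholesterol the 10 genes lay lower in dB/dB against wild type for 9, with a median of -0.45, and higher in dB/dB catalase-Tg against dB/dB for 8, with a median of 0.40. Fdft1, squalene synthase and the first enzyme committed to sterols, differed from that majority. Fdft1 read 8.92, 8.23 and 8.41 in wild type, 7.81, 7.48 and 7.56 in catalase-Tg, 8.83, 8.41 and 8.60 in dB/dB and 8.23, 7.64 and 8.14 in dB/dB catalase-Tg. On the probe set used, each transgenic group lay wholly below the group without the transgene. The difference was -0.91 (SE 0.23, adjusted p = 0.411) against wild type and -0.61 (SE 0.23, adjusted p = 0.636) against dB/dB. Averaged over both, it was -0.76 (SE 0.17, adjusted p = 0.172), with a 95% interval before adjustment of -1.13 to -0.39. This was the smallest p of the group in any transgene contrast, and it passed in 4 of 23 other fits, with adjusted p-values of 0.00670 to 0.617. On the other Fdft1 probe set above the filter the groups overlapped in both comparisons. Its differences were -0.51 (SE 0.30) in catalase-Tg against wild type and -0.46 (SE 0.30) in dB/dB catalase-Tg against dB/dB.

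Msmo1, a methyl oxidase that takes part in the removal of methyl groups from sterol intermediates, was also lower in catalase-Tg. It read 9.88, 8.91 and 9.13 in wild type and 8.41, 8.22 and 8.64 in catalase-Tg, which lay wholly lower, at -0.88 (SE 0.27, adjusted p = 0.492). In dB/dB it read 9.21, 9.17 and 8.87, and in dB/dB catalase-Tg 8.52, 8.49 and 9.07. The last 2 groups overlapped through dB/dB catalase-Tg 3. Averaged, the transgene difference was -0.63 (SE 0.19, adjusted p = 0.188), and the interaction was 0.49 (SE 0.38, adjusted p = 1.00).

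Sqle, squalene epoxidase and a control point of the pathway, had the smallest p of the group for the interaction. Its values were 7.21, 7.46 and 7.16 in wild type and 6.49, 6.79 and 7.06 in catalase-Tg. They were 6.80, 6.82 and 6.65 in dB/dB and 6.69, 7.73 and 8.01 in dB/dB catalase-Tg. Catalase-Tg and dB/dB each lay wholly below wild type, while dB/dB catalase-Tg 2 and 3 were the highest of the 12. The transgene difference was -0.49 (SE 0.31) without the mutation and 0.72 (SE 0.31, adjusted p = 0.636) with it. The interaction of 1.22 (SE 0.43, adjusted p = 1.00) had an unadjusted p of 0.0176 and an interval of 0.26 to 2.18. Hmgcs1 and Sqle shared their highest arrays, dB/dB catalase-Tg 2 and 3.

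The later steps were Lss, Cyp51, Nsdhl, Hsd17b7, Ebp, Sc5d and Dhcr7. Sc5d, sterol desaturase, read 7.03, 7.60 and 7.46 in wild type and 7.63, 8.31 and 8.80 in catalase-Tg, without overlap, at 0.88 (SE 0.37). In dB/dB it read 7.35, 6.84 and 7.18 and in dB/dB catalase-Tg 6.84, 7.93 and 8.10. Dhcr7 makes the last reduction to cholesterol, and read 6.82, 5.99 and 6.51 in wild type, 6.58, 6.76 and 6.62 in catalase-Tg, 6.15, 5.94 and 5.96 in dB/dB and 6.13, 6.29 and 6.32 in dB/dB catalase-Tg. Its average dB/dB effect was -0.42 (SE 0.15, adjusted p = 0.383). The 2 transgenic groups did not overlap, and the other pair overlapped through wild type 2.

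Nsdhl, Hsd17b7 and Ebp, which finish demethylation and shift the sterol double bond, shared a pattern. Their differences in dB/dB against wild type were -0.47 (SE 0.41), -0.66 (SE 0.44) and -0.90 (SE 0.46). In dB/dB catalase-Tg against dB/dB they were 0.53 (SE 0.41), 0.83 (SE 0.44) and 0.80 (SE 0.46). Nsdhl read 8.39 on wild type 1 and 9.77 and 9.63 on wild type 2 and 3, against 8.72 to 8.88 on the dB/dB arrays. Cyp51, lanosterol demethylase, had the largest catalase-Tg spread of these, at 6.23, 8.65 and 8.34. Lss, which closes squalene into lanosterol, differed by less than 1.5 SE in every simple contrast.

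Among the regulators, Scap had group means of 8.32 ± 0.17 (SD, n = 3) in wild type, 8.27 ± 0.04 in dB/dB, 8.30 ± 0.21 in catalase-Tg and 8.24 ± 0.27 in dB/dB catalase-Tg, and its dB/dB difference was -0.05 with an interval of -0.47 to 0.37. Srebf2, the factor tied most to cholesterol genes, read 5.75, 5.53 and 5.50 in wild type, 5.43, 5.83 and 5.64 in catalase-Tg, 5.53, 4.70 and 5.18 in dB/dB and 5.45, 5.76 and 5.70 in dB/dB catalase-Tg. The dB/dB arrays spread over more than the other groups, and the difference from wild type was -0.46 (SE 0.22, adjusted p = 0.767), with an interval of -0.95 to 0.04. Its interaction was 0.46 (SE 0.31, adjusted p = 1.00). Srebf1, tied most to fatty acid genes, read 7.03, 7.60 and 6.74 in wild type, 7.56, 6.75 and 6.84 in catalase-Tg, 6.99, 6.54 and 6.79 in dB/dB and 6.56, 6.49 and 6.07 in dB/dB catalase-Tg. The last group was wholly below catalase-Tg, at -0.68 (SE 0.29, adjusted p = 0.704), and the average dB/dB effect was -0.51 (SE 0.20, adjusted p = 0.395).

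Insig1, itself a target of the SREBP factors, read 6.79, 8.32 and 7.51 in wild type, 7.18, 8.02 and 7.81 in catalase-Tg, 6.89, 7.06 and 7.02 in dB/dB and 6.70, 7.47 and 7.99 in dB/dB catalase-Tg. Wild type 1 lay below all dB/dB arrays and the other 2 wild-type arrays lay above them. Its dB/dB difference was -0.55 (SE 0.41), with an interval of -1.47 to 0.37. Insig2, its relative that is less tied to SREBP, differed by -0.25 (SE 0.24). Stard4, a carrier that moves cholesterol between membranes, differed by -0.13 (SE 0.30), and its highest value, 8.80, was on wild type 2.

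Fatty acid synthesis held 5 genes, of which 4 lay below 0 in dB/dB against wild type. Fasn, fatty acid synthase, read 4.68, 6.65 and 6.30 in wild type, 6.33, 6.45 and 6.41 in catalase-Tg, 5.13, 4.35 and 4.96 in dB/dB and 5.06, 5.61 and 6.60 in dB/dB catalase-Tg. Wild type 1 fell within the dB/dB range, and the 3 catalase-Tg arrays lay between 6.33 and 6.45. The dB/dB difference was -1.07 (SE 0.51, adjusted p = 0.767), with an interval of -2.20 to 0.06. It turned to 0.13 against wild type 1 alone, without wild type 2 and wild type 3.

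Me1, malic enzyme and a source of NADPH for synthesis, had the widest wild-type spread of the group. It read 6.26, 10.20 and 10.59 in wild type, 9.36, 10.45 and 10.94 in catalase-Tg, 8.31, 8.10 and 7.94 in dB/dB and 8.06, 10.24 and 9.81 in dB/dB catalase-Tg. Wild type 1 was the lowest of the 12, and the other low arrays were the 3 dB/dB arrays and dB/dB catalase-Tg 1. The dB/dB difference was -0.90 (SE 1.01). Acly, which supplies cytosolic acetyl-CoA, differed by -0.32 (SE 0.46), and Acaca, the acetyl-CoA carboxylase of synthesis, by -0.10 (SE 0.23).

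Acacb, the carboxylase whose product restrains fatty acid entry into mitochondria, went the other way. It read 6.74, 2.99 and 4.80 in wild type, 2.60, 3.32 and 3.06 in catalase-Tg, 6.67, 5.49 and 6.00 in dB/dB and 5.63, 4.22 and 4.69 in dB/dB catalase-Tg. All 3 catalase-Tg arrays lay below the filter value of 4 and towards the floor of 2.302, where differences are less exact, and neither dB/dB group overlapped them. The measured difference was -1.85 (SE 0.77, adjusted p = 0.534) in catalase-Tg against wild type, 1.85 (SE 0.77, adjusted p = 0.704) in dB/dB catalase-Tg against catalase-Tg, and 1.53 (SE 0.55, adjusted p = 0.383) as the average dB/dB effect. Its 5 highest arrays were wild type 1, the 3 dB/dB arrays and dB/dB catalase-Tg 1, which were also the 5 with the highest endothelial scores. With the marker score of other cells as a covariate, the dB/dB difference from wild type was 0.36 (SE 0.49), against 1.21 (SE 0.77) without it, and the catalase-Tg difference from wild type was -0.67 (SE 0.53).

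Desaturation and elongation held the gene with the smallest p for the mutation. Fads1, the delta-5 desaturase of polyunsaturated fatty acids, read 8.08, 8.68 and 8.34 in wild type and 8.78, 8.77 and 8.54 in catalase-Tg. It read 7.93, 7.31 and 7.46 in dB/dB and 7.29, 7.94 and 8.03 in dB/dB catalase-Tg. All 6 arrays with the mutation lay below all 6 without it, though dB/dB catalase-Tg 3 at 8.03 and wild type 1 at 8.08 lay close. The difference was -0.80 (SE 0.26, adjusted p = 0.767) in dB/dB against wild type and -0.94 (SE 0.26, adjusted p = 0.559) in dB/dB catalase-Tg against catalase-Tg. Averaged, it was -0.87 (SE 0.18, adjusted p = 0.299), with a 95% interval before adjustment of -1.27 to -0.47 and an unadjusted p of 0.000638. Over 23 other fits the average ran from -0.96 to -0.68 and the adjusted p from 0.0153 to 1.00, passing in 3. With a score of podocyte, endothelial and mural markers as a covariate it was -0.68 (SE 0.17).

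Fads2, the delta-6 desaturase that works before Fads1, did not share that separation. It read 5.22, 8.92 and 8.68 in wild type, 8.07, 8.91 and 8.77 in catalase-Tg, 6.73, 5.60 and 7.07 in dB/dB and 5.73, 8.52 and 8.28 in dB/dB catalase-Tg. Wild type 1 was the lowest, and the difference of -1.14 had an SE of 0.99. With that marker score as a covariate it was -0.17 (SE 0.75).

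The 2 stearoyl-CoA desaturases, which make monounsaturated fatty acids, differed from each other. Scd2 read 10.70, 6.32 and 8.99 in wild type, 6.89, 6.22 and 6.16 in catalase-Tg, 9.95, 9.77 and 10.01 in dB/dB and 9.30, 7.61 and 7.62 in dB/dB catalase-Tg. The 3 dB/dB arrays lay between 9.77 and 10.01, while wild type ran from 6.32 to 10.70. Its difference was -2.25 (SE 0.89, adjusted p = 0.532) in catalase-Tg against wild type, and the average transgene effect was -1.99 (SE 0.63, adjusted p = 0.193). With the marker score as a covariate these were -0.71 (SE 0.40) and -0.39 (SE 0.32). Scd1 read 4.86, 7.48 and 4.64 in wild type, 4.95, 5.16 and 4.44 in catalase-Tg, 4.85, 4.65 and 5.05 in dB/dB and 4.74, 3.77 and 3.49 in dB/dB catalase-Tg. Its dB/dB difference of -0.81 turned to 0.10 without wild type 2. Wild type 2 alone exceeded 6, and that array is the one with Xist at 11.91. The elongases Elovl5 and Elovl6 differed by -0.24 (SE 0.24) and -0.49 (SE 0.40) in dB/dB against wild type.

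**Figure D3:**
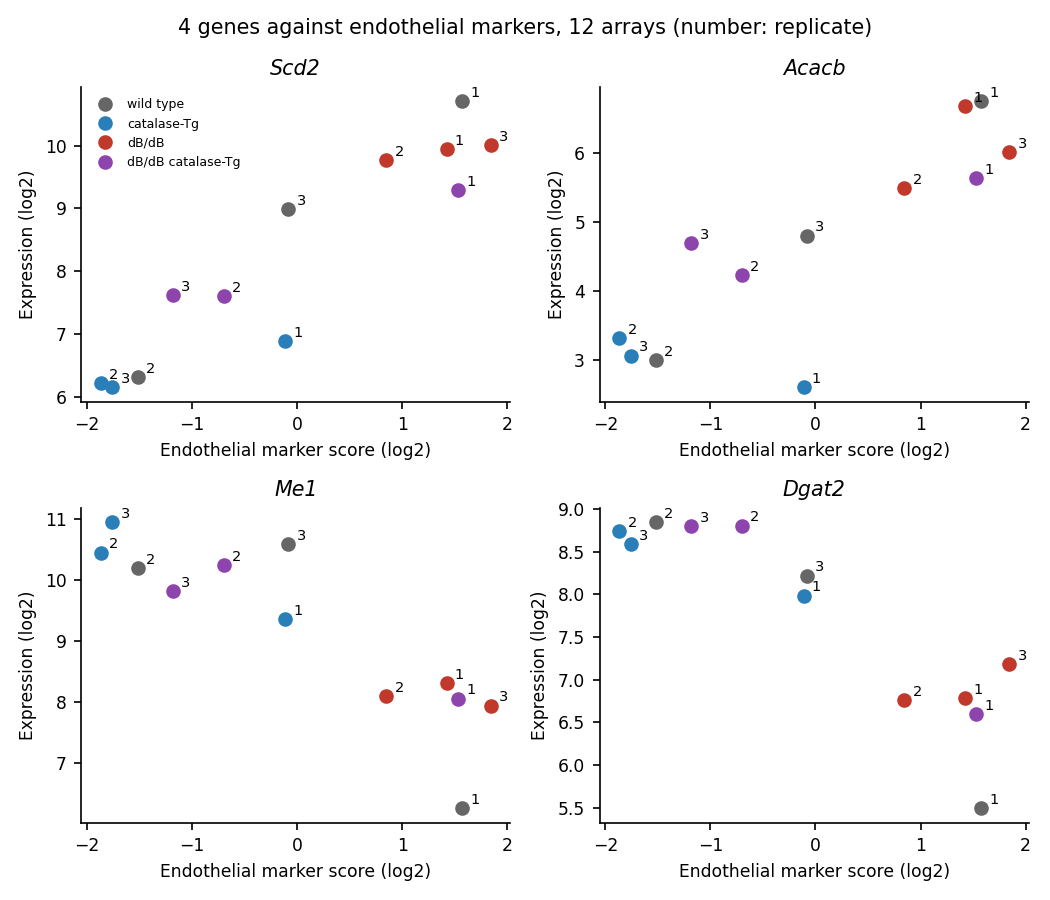
Expression (log2) of Scd2, Acacb, Me1 and Dgat2 against the endothelial marker score (log2) on each of 12 arrays, coloured by group and numbered by replicate. Scd2 and Acacb are high, and Me1 and Dgat2 low, on the 5 arrays with scores from 0.85 to 1.84.

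Triglyceride synthesis held Gpam, the first acylation step, and Dgat1 and Dgat2, the last. All 3 lay below 0 in dB/dB against wild type and above 0 in dB/dB catalase-Tg against dB/dB. Dgat2 read 5.49, 8.84 and 8.22 in wild type, 7.98, 8.74 and 8.59 in catalase-Tg, 6.78, 6.76 and 7.18 in dB/dB and 6.60, 8.80 and 8.80 in dB/dB catalase-Tg. As with Me1 and Fads2, wild type 1 and dB/dB catalase-Tg 1 were low. The dB/dB difference was -0.61 (SE 0.81), and it was 0.05 without wild type 2 and 0.31 (SE 0.48) with the marker score as a covariate. Gpam differed by -0.23 (SE 0.43) and Dgat1 by -0.32 (SE 0.27).

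**Figure D4:**
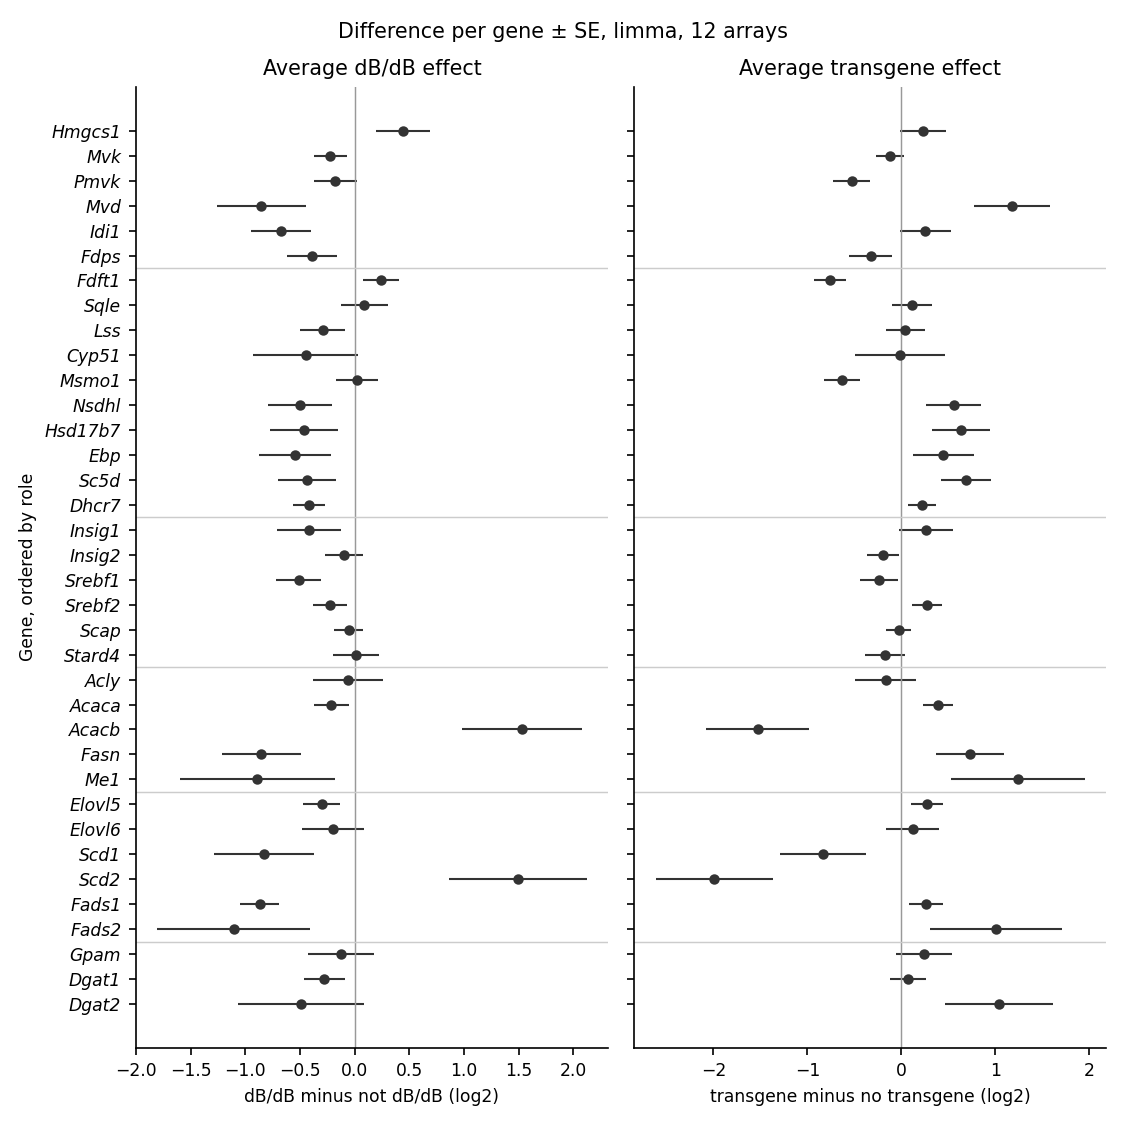
Average dB/dB effect (left) and average transgene effect (right) for each of the 36 genes (points, log2 difference) with SE (bars), from limma on 12 arrays, ordered by role. Fads1 at -0.87 on the left and Fdft1 at -0.76 on the right have the smallest p-values, and none passed the adjusted threshold.

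Which arrays entered decided how many genes passed. A set of 3 arrays (dB/dB catalase-Tg 1, catalase-Tg 1 and wild type 1) was picked in earlier work on these data for low array weights, which follow an array's distance from its own group. Leaving them out narrows the spread by its construction and leaves wild type 2 and wild type 3, the arrays with Xist. In that fit 15 of the 36 genes (41.7%) passed in dB/dB against wild type, 13 lower and 2 higher, where 26.9% of all probe sets passed. The 13 were Mvd (-2.11), Sqle (-0.55), Cyp51 (-1.29), Nsdhl (-0.91), Hsd17b7 (-0.97), Ebp (-1.25), Insig1 (-0.92), Fasn (-1.67), Me1 (-2.28), Elovl5 (-0.50), Fads1 (-0.94), Fads2 (-2.33) and Dgat2 (-1.63), and the 2 were Acacb (2.16) and Scd2 (2.26). In dB/dB catalase-Tg against dB/dB 14 (38.9%) passed, 12 higher and 2 lower, beside 27.8% of all probe sets. Among these were Hmgcs1 (1.07), Mvd (1.90), Sqle (1.12), Hsd17b7 (1.32) and Fasn (1.29), and the 2 lower ones were Fdft1 (-0.72) and Scd2 (-2.29). The interaction called 2 (5.56%), Mvd (1.82) and Sqle (1.50), beside 0.788%. Catalase-Tg against wild type and dB/dB catalase-Tg against catalase-Tg called 0 of 36, beside 0.171% and 0.127% (limma), with 4 (11.1%) and 6 (16.7%) at an unadjusted p under 0.05, beside 9.79% and 11.4% of all probe sets. The average dB/dB and average transgene effects each called 12 (33.3%), beside 19.4% and 20.5%.

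Other fits changed the counts too. With limma's array weights, 22 of 36 (61.1%) passed in dB/dB catalase-Tg against dB/dB, beside 38.5% of all probe sets, and 3 (8.33%) in dB/dB catalase-Tg against catalase-Tg, beside 4.87%. The average effects then called 5 (13.9%, beside 10.9%) for dB/dB and 13 (36.1%, beside 26.4%) for the transgene. Without wild type 2 and wild type 3, 7 (19.4%) passed in catalase-Tg against wild type, beside 12%, and 10 (27.8%) in the average transgene effect, beside 18.6%. Without wild type 1, the average dB/dB effect called Mvd, Acacb, Fasn, Scd2 and Fads1 (13.9%, beside 6.87%). Without wild type 2, Scd2 passed in catalase-Tg against wild type (2.78%, beside 1.49%), and Fdft1, Acacb and Scd2 in the average transgene effect (8.33%, beside 5.34%). With the podocyte, endothelial and mural marker score as a covariate, 0 of 36 passed in limma in all 7 contrasts. At an unadjusted p under 0.05 in that fit, 2 (5.56%) passed in dB/dB against wild type, beside 2.44% of all probe sets. Catalase-Tg against wild type had 7 (19.4%) beside 8.08%. For dB/dB catalase-Tg the counts were 0 (0%) against dB/dB, beside 3.64%, and 6 (16.7%) against catalase-Tg, beside 7.14%. The interaction had 1 (2.78%) beside 2.99%. The average effects had 3 (8.33%) beside 6.15% for dB/dB and 5 (13.9%) beside 7.73% for the transgene. With the covariate the median dB/dB difference of the 36 genes moved from -0.41 to -0.13.

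**Figure D5:**
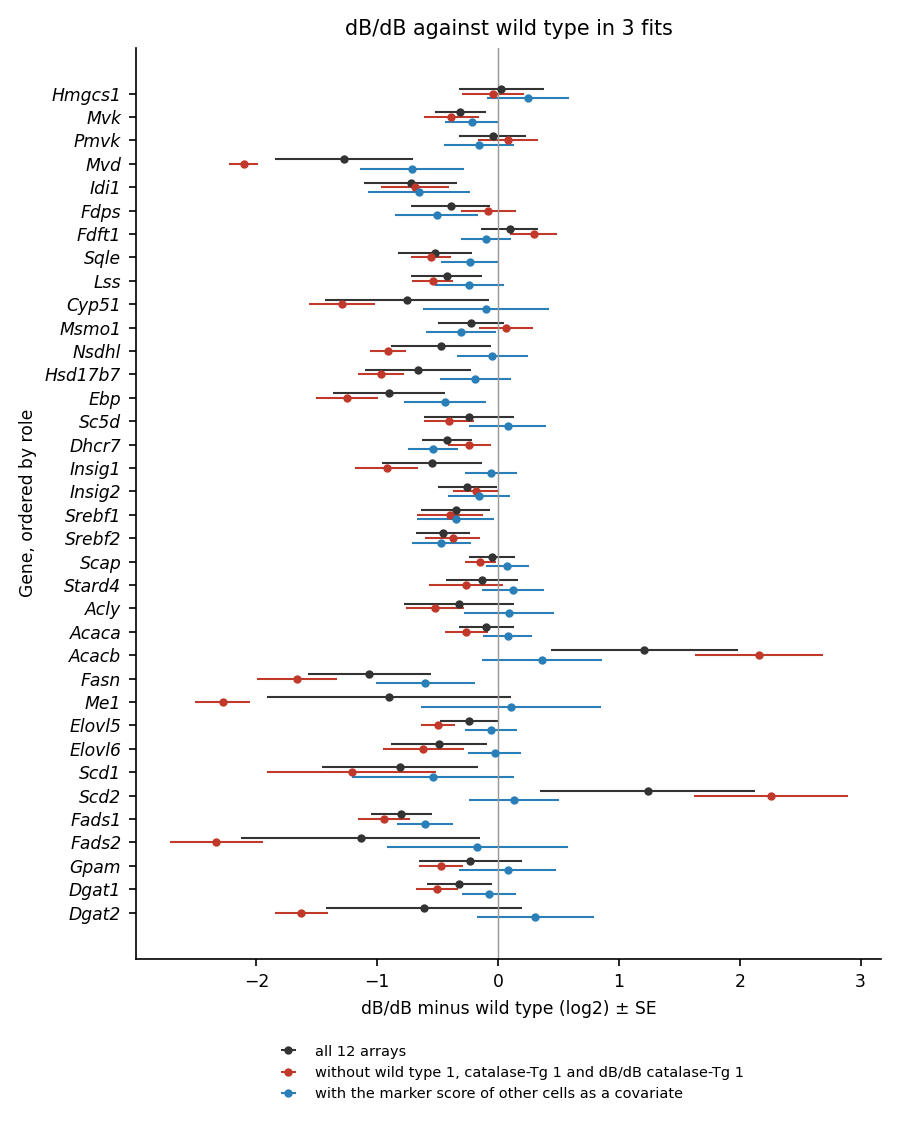
Difference of dB/dB from wild type (log2, points) with SE (bars) for each of the 36 genes, from all 12 arrays, without 3 arrays, and with the marker score of other cells as a covariate. Me1 moves from -0.90 to -2.28 without the 3 arrays and to 0.11 with the covariate, whereas Fads1 stays between -0.94 and -0.60.

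Second probe sets gave another reading of the same genes. Beside those used, 25 further probe sets of 18 genes passed the filter. Their sign was opposite in 4 of 25 in dB/dB against wild type, 2 in dB/dB catalase-Tg against catalase-Tg, 7 in dB/dB catalase-Tg against dB/dB and 1 in catalase-Tg against wild type. Opposite signs came from Hmgcs1, Lss, Srebf2, Idi1, Sc5d, Insig2 and Stard4. In 1 of the 14 the 2 differences lay apart by more than the sum of their SEs: Lss in dB/dB catalase-Tg against dB/dB, at 0.18 (SE 0.30) and -0.56 (SE 0.37). Among pairs of the same sign, Stard4 in dB/dB catalase-Tg against catalase-Tg also lay that far apart, at 0.15 (SE 0.30) and 0.85 (SE 0.32).

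Genes around the group were listed too: 48 for sterol uptake, export and processing and for further fatty acid and glyceride steps, of which 39 were tested and 0 passed in limma, with 6 (15.4%) at an unadjusted p under 0.05 in either average effect, beside 12.2% of all probe sets for dB/dB and 18.1% for the transgene. In dB/dB against wild type 29 of the 39 (74.4%) lay below 0, with a median of -0.32, and in the average dB/dB effect 29 with a median of -0.23, where 62% and 63.3% of all probe sets lay below 0. Slc25a1, the mitochondrial citrate carrier that feeds Acly, read 6.84, 8.20 and 8.07 in wild type, 8.24, 8.62 and 8.49 in catalase-Tg, 7.18, 6.24 and 6.93 in dB/dB and 6.94, 8.20 and 7.94 in dB/dB catalase-Tg. Its average effects were -0.84 (SE 0.30, adjusted p = 0.383) for dB/dB and 0.83 (SE 0.30, adjusted p = 0.212) for the transgene. Mlx, the partner of the carbohydrate-responsive factor ChREBP, gave -0.67 (SE 0.21, adjusted p = 0.372) and 0.55 (SE 0.21, adjusted p = 0.228). Abcg1, a cholesterol exporter, gave 0.51 (SE 0.17, adjusted p = 0.372) and -0.55 (SE 0.17, adjusted p = 0.189).

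Others with the smallest p-values were spread over both lists. Plin3, a lipid droplet coat protein, and Npc2, which moves cholesterol out of lysosomes, had average dB/dB effects of -0.49 (SE 0.14, adjusted p = 0.372) and -0.43 (SE 0.13, adjusted p = 0.372). Npc1, its lysosomal partner, gave -0.31 (SE 0.15, adjusted p = 0.420). Nr1h3, the sterol receptor LXR-alpha, had an average transgene effect of 1.28 (SE 0.55, adjusted p = 0.261), with wild type 1 at 2.76 against 5.69 and 5.28 on the other two wild-type arrays. Elovl1, an elongase of very long chains, gave 0.47 (SE 0.19, adjusted p = 0.242), and Mbtps1, a protease that cuts SREBP in the Golgi, gave -0.24 (SE 0.15, adjusted p = 0.409).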

How the data were processed

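Values were those of 12 arrays with 3 per group. The authors deposited log2 expression per probe set made with GCRMA (background correction and normalization), per the submitters' processing notes, which also list limma; versions are not given in the sources used here. The files held 45101 probe sets, of which 64 controls were dropped and 34945 had 1 gene symbol in the platform annotation. All probe sets other than controls, with or without a symbol, were tested if above 4 on at least 3 arrays, 18144 in all. The test was limma 3.58.1 (R 4.3.3), with 1 mean per group, default empirical Bayes and Benjamini-Hochberg adjustment. No further normalization was applied, and the number of arrays limits the precision. Named genes are those with the 4 smallest p-values per contrast, any past the threshold, and the 3 smallest of each neighbour list in the average effects. The rest are named to account for every gene. The members, lists and alternatives were chosen with earlier results of these data known. Simulated data of 18144 probe sets, in the contrast of dB/dB with wild type, gave calls for 32% of those given a log2 change of 1 and 72% at 2, and 8 false calls. That was a single run with independent normal noise for each probe set. Deviations of the real arrays were shared between probe sets, so these shares do not give the power or error rate of the data.

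Arrays of the same replicate number were compared by the correlation of their deviations from group means. The values were 0.396, 0.200 and 0.308 for catalase-Tg with wild type and 0.607, 0.453 and 0.426 for dB/dB catalase-Tg with catalase-Tg. Wild type with dB/dB catalase-Tg gave 0.705, 0.525 and 0.265. For dB/dB with wild type (0.165, 0.145 and 0.0974), dB/dB with catalase-Tg and dB/dB catalase-Tg with dB/dB the values did not all exceed 0.1. Arrays of unlike number were not compared, so these values do not show that the numbers pair arrays. The labels do not say what a number marks.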

Additional observations from a re-analysis of the deposited data

How the results depend on the processing

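No gene of the group passed in any contrast with other filters, trend and robust spread estimates, or quantile or median scaling. None passed with the replicate block (in the full fit or in 2 pairs of groups alone), the groups of a contrast alone, or the marker covariate. Of all probe sets, numbers called are given here for the 7 contrasts in a fixed order. The first 2 are dB/dB against wild type and catalase-Tg against wild type. The third is dB/dB catalase-Tg against dB/dB, and the fourth is dB/dB catalase-Tg against catalase-Tg. The last 3 are the interaction, the average dB/dB effect and the average transgene effect. Numbers called were 0, 4, 1, 5, 1, 3 and 5 in the fit reported. Without a filter they were 6, 14 and 3 in the first 3, then 6, 5 and 9 in the last 3. The stricter filter (above 5 on 6 arrays) gave 2 in the second and 0, 0, 1 and 3 in the last 4. The replicate block gave 0 probe sets for the interaction and 1 for the average dB/dB effect, with no gene of the group called. Quantile scaling gave 3 in the fourth. Each pair of groups alone gave 0 in the second and 2 in the third, and with the replicate block 0 in the second and the fourth. The marker covariate gave 0 and 1 for the average effects, and median differences of the 36 genes of -0.129, -0.323, -0.131 and 0.034 in the first 4 and -0.23 for the transgene average. Array weights called 22, 3, 5 and 13 genes of the group and 6989, 883, 1975 and 4785 probe sets in the third, the fourth and the average contrasts. Without the set of 3 arrays that stood apart the probe sets called were 4875, 31, 5043, 23, 143, 3515 and 3711, with 15, 14, 2, 12 and 12 genes of the group in the contrasts other than the second and the fourth and a median of 0.54 in the third. Without wild type 2 and wild type 3, 7 and 10 genes of the group passed in the second and last, 2180, 174, 0, 0 and 3375 probe sets in the second and the last 4, the median was -0.024 in the first and -0.10 for the interaction, and Mvd and Fasn turned to 0.39 and 0.13 in dB/dB against wild type. The cause was not tested.

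Leaving out 1 array at a time, genes of the group called ran from 0 to 1 in the first 2 contrasts, 0 to 5 for the average dB/dB effect and 0 to 3 for the transgene average. Probe sets called ran from 0 to 107 (highest without wild type 1), 3 to 270, 0 to 4, 1 to 22, 0 to 2, 0 to 1246 (highest without wild type 1) and 2 to 969 (highest without wild type 2). Median differences ran from -0.503 to -0.189, -0.182 to 0.129, 0.087 to 0.536 and -0.444 to 0.078 in the first 4, the last 2 highest without dB/dB catalase-Tg 1. With 1 array left out, 10, 19, 8, 14, 20, 8 and 7 of the 36 genes changed sign in at least 1 such fit, Dgat2 and Scd1 among them in dB/dB against wild type.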
